A study of Schizosaccharomyces pombe with 36 samples.

Results

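The flocculin family of the fission yeast Schizosaccharomyces pombe and the regulators of these cell-surface proteins were followed through all 36 RNA-seq libraries of the study. The list of genes was chosen with earlier results of these data known, so its counts beside shares of all genes are descriptions. By a rule that itself uses no measured value, the 9 genes were taken by name from the 5129 genes of the count table. They were the flocculin genes gsf2 (SPCC1742.01), pfl2 (SPAPB15E9.01c), pfl3 (SPBC947.04), pfl4 (SPCC188.09c), pfl5 (SPBC1289.15) and pfl7 (SPBC359.04c), the surface-protein gene cbm1 (SPAC2E1P3.05c), and the regulators mbx2 (SPBC317.01) and cbf12 (SPCC1223.13). Reference annotation calls the product of cbm1 a cellulose-binding domain-containing protein rather than a flocculin, and it is counted here with the flocculins because the list holds it. All 9 genes passed the filter on low counts in every comparison.

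Flocculins are large glycoproteins of the yeast cell wall through which cells stick to one another or to a surface. In fission yeast Gsf2 is the dominant flocculin, the Pfl proteins are related adhesins, and many of them carry arrays of tandem repeats and a DIPSY domain. The MADS-box factor Mbx2 and the CSL-family factor Cbf12 are known activators of flocculation, and wild-type cells in rich medium normally grow as single cells. SAGA is a transcriptional co-activator in which Tra1 is the activator-binding subunit, and Spt20 is a core subunit through which Tra1 is held in the complex. Tra2, a paralogue of Tra1, belongs to the NuA4 acetyltransferase, and Tti2 is part of the TTT cochaperone that matures both proteins with Hsp90.

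The study asked how TTT and particular SAGA regions govern assembly and gene expression, and measured polyA RNA of liquid cultures in exponential growth in rich YES medium, with 3 libraries in each of 12 conditions. The first 6 conditions were WT, tra1Δ, which lacks tra1, the hybrids tra1-Sptra2 and tra1-Sctra1, in which a short stretch of Tra1 was replaced by that of S. pombe Tra2 or of budding yeast Tra1, spt20Δ, which lacks spt20, and spt20-HITΔ, which lacks the short Tra1-binding HIT region of Spt20 and carries a PK3 tag. The other 6 were DMSO and β-estradiol cultures of 3 strains that all carry the estradiol-activated recombinase CreER: creER with no floxed gene, tti2-CKO with tti2 between lox sites and tra2-CKO with tra2 between lox sites. Treatment lasted 18 h in tti2-CKO, and 21 h in both other strains. Libraries held 4811942 to 9724398 counts, and replicates correlated at r = 0.970 or more over genes. The targeted genes tti2, tra2, tra1 and spt20 were each lower in their own mutant, with log2 fold changes of -4.39, -3.86, -7.69 and -3.29. The 5 mutants without CreER were compared with the same 3 WT libraries, so their comparisons share those controls. Because bulk RNA was measured, fewer expressing cells and less RNA per cell cannot be told apart.

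The sequences before the starts of cbm1 and pfl3 are shown first, because these flocculin genes changed most between SAGA mutants. Each stretch is the 250 bases before the annotated 5′ end of the transcript, read 5′ to 3′ on the strand of the gene, from the RefSeq genome ASM294v3. Capitals mark TATAAA. The cbm1 gene lies on the minus strand of chromosome I and pfl3 on the minus strand of chromosome II.
cbm1: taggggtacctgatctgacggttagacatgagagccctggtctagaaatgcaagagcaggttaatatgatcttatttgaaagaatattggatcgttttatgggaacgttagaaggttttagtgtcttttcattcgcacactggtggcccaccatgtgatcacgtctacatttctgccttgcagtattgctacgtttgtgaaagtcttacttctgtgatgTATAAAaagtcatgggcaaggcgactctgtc
pfl3: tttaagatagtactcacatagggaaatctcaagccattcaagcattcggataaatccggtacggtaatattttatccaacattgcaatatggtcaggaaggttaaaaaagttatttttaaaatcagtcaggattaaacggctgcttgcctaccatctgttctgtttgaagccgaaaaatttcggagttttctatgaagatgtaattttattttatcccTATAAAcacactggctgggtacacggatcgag
TATAAA began 31 bases before the start of cbm1 and 32 bases before that of pfl3. Of the other members, pfl7 held it 89 bases and pfl5 223 bases before the start, and gsf2, pfl2, pfl4, mbx2 and cbf12 did not hold these 6 letters in the window. On either strand, 44.4% of 5112 promoters of this length held TATAAA. On the strand of the gene and 25 to 40 bases before the start, 4.40% of them did. That narrower window was chosen after the positions in cbm1 and pfl3 had been seen. A match is a description of the letters and not a binding site.

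Tandem repeats bear on how reads of these genes can be placed. One repeat unit each of pfl3 and gsf2 is shown, taken from ASM294v3 on the strand of the gene, with an arbitrary first base.
pfl3 unit: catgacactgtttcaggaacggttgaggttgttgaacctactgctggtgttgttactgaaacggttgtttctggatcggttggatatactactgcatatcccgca
gsf2 unit: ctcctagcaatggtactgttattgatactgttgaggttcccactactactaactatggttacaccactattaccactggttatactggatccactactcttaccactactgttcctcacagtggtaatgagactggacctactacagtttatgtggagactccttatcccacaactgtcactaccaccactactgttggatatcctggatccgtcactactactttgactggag
The pfl3 unit spanned 105 bases and the gsf2 unit, on the minus strand of chromosome III, 234 bases. Of all 50-base windows of a gene, the length of the reads, 48.2% in pfl5, 39.9% in gsf2, 33.7% in pfl3 and 14.8% in pfl2 occurred more than once inside the same gene. Windows of cbm1, pfl4, pfl7, mbx2 and cbf12 were unique, and no window of any of the 9 genes occurred elsewhere in the genome. The authors' counting required an alignment quality of at least 10, and how many reads of repeats it left out was not tested.

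Per length, cbm1 and pfl2 were the most abundant members in WT and pfl5 the least. In CPM, the count of a gene relative to the TMM-scaled total of its library, divided by the gene length in kilobases, the WT level was 528 ± 67.9 for cbm1 and 376 ± 58.0 for pfl2 (SD, n = 3). The level was 70.4 ± 1.80 CPM per kilobase for pfl3, 21.9 ± 4.10 for pfl7, 19.0 ± 3.95 for cbf12, 18.0 ± 3.26 for mbx2 and 17.6 ± 1.93 for pfl4. The dominant flocculin gene gsf2 stood at 9.96 ± 0.921 CPM per kilobase and pfl5 at 4.89 ± 0.414. Counting only unique windows raised gsf2 to 16.7, pfl5 to 9.55 and pfl3 to 108 CPM per kilobase, and pfl5 and gsf2 remained the lowest of the 9 genes in WT.

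The members differed in how far their levels moved over the 36 libraries. The highest library exceeded the lowest 17.3-fold for cbm1 and 16.7-fold for pfl7, in CPM. The same ratio was 6.31 for pfl3, 3.74 for mbx2, 3.65 for cbf12 and between 2.16 and 2.28 for gsf2, pfl5 and pfl2. The least variable member was pfl4, with a 1.58-fold range. When the 12 conditions were ordered by mean CPM, neighbours whose libraries did not overlap were found in 5 places for pfl3, 3 for cbm1 and 2 for mbx2. In the other 6 genes, neighbours in that order overlapped throughout. The separated steps of cbm1 were those from tra2-CKO in β-estradiol at 433 CPM to tra1-Sptra2 at 332, tra1Δ at 238 and spt20Δ at 48.1. The pfl3 order ran from WT at 229 CPM and tra1-Sctra1 at 205 down to tra1-Sptra2 at 68.7, tra1Δ at 55.8 and spt20Δ at 39.3.

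**Figure D1:**
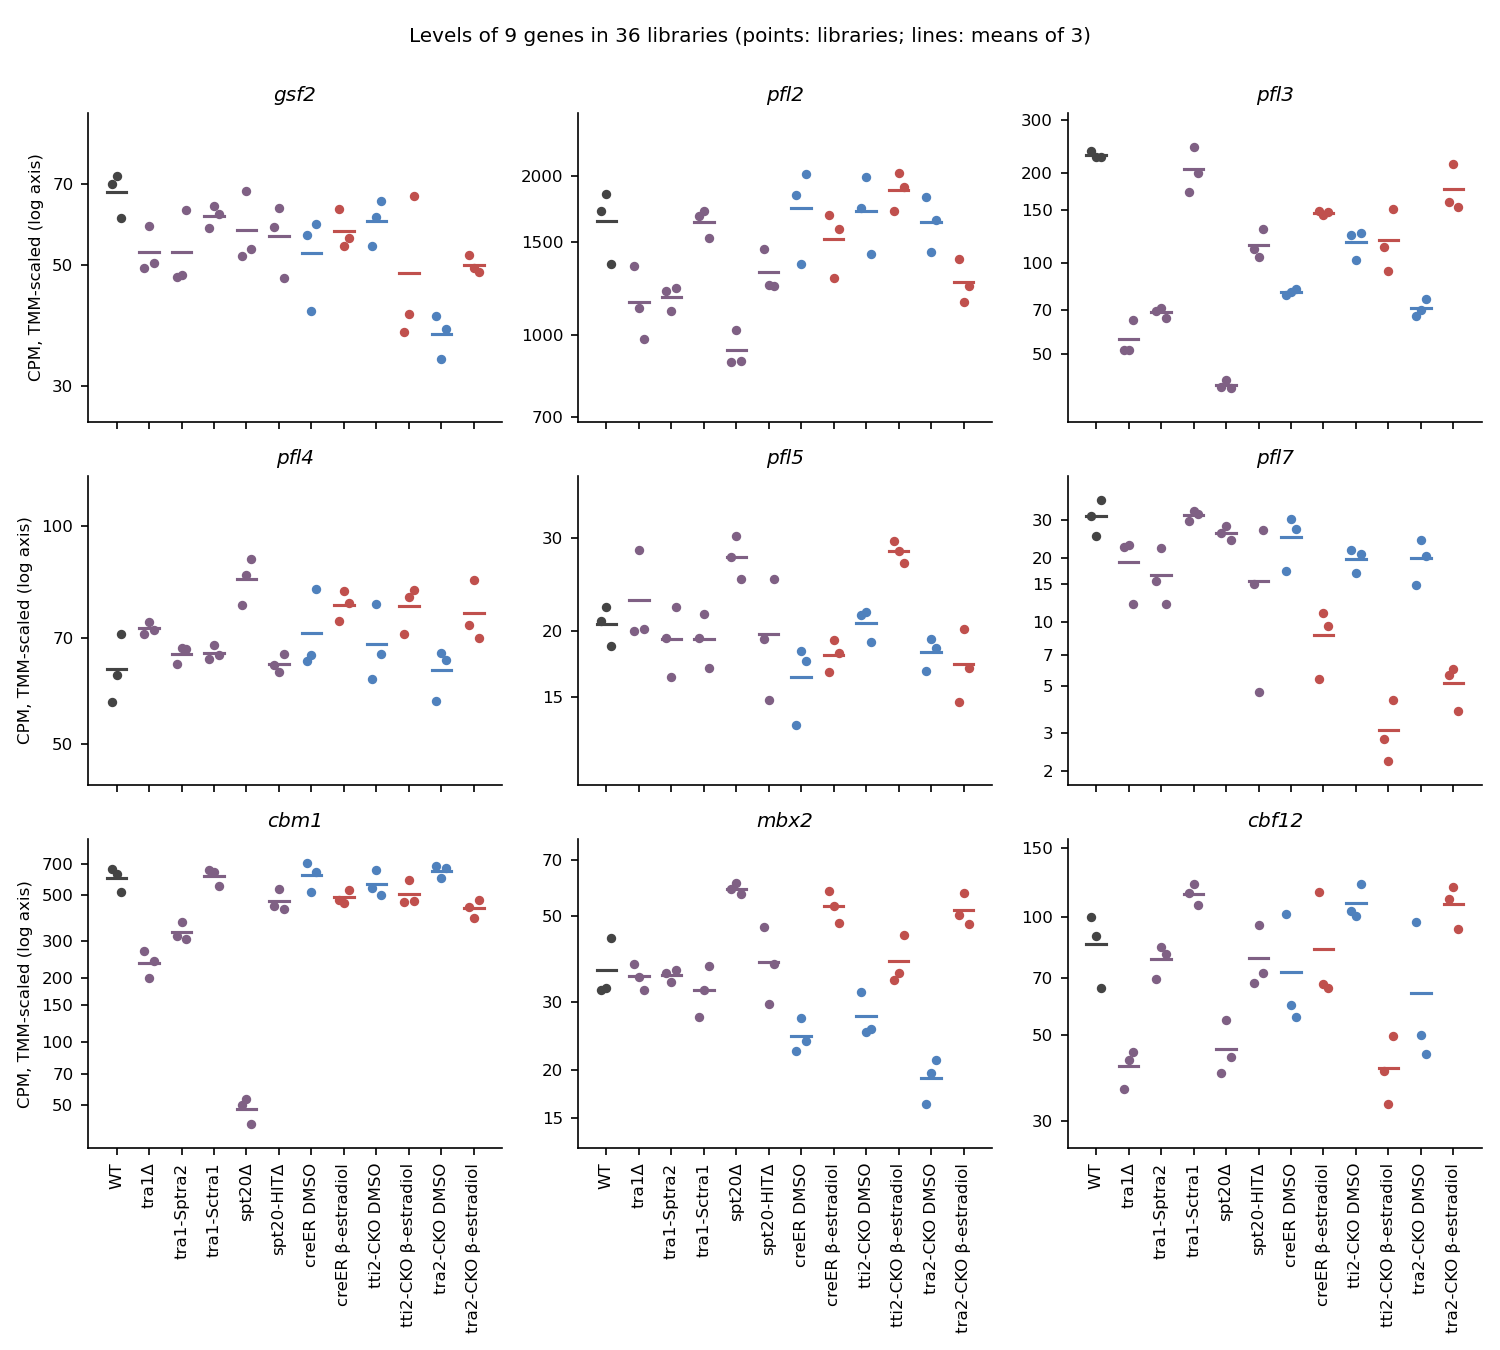
Level of each of the 9 genes in TMM-scaled CPM on a log axis, by condition, with a point for each library and a line at the mean of 3. The spt20Δ points of cbm1 lie between 40.6 and 53.6 CPM while every other condition lies above 200 CPM, and pfl4 stays between 57.1 and 90.1 CPM throughout.

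Deletion of spt20 changed more members than any other mutation compared with WT. Here and below, a gene was called when its level differed 1.5-fold or more and its adjusted p did not exceed 0.01, by edgeR's quasi-likelihood test with Benjamini-Hochberg adjustment over all genes tested. By that rule 5 of the 9 genes were called in spt20Δ, where 12.8% of 4920 genes were, 7.09% higher and 5.73% lower: cbm1, pfl3, pfl2 and cbf12 fell and mbx2 rose. The median log2 fold change was -0.25 over the 9 members and 0.02 over all genes tested.

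The cbm1 level fell furthest. WT libraries held 661, 628 and 514 CPM of cbm1, and spt20Δ libraries 50.0, 53.6 and 40.6. The ranges were far apart, with the lowest WT library above the highest spt20Δ library. This was a 12.4-fold decrease, with a log2 fold change of -3.63 ± 0.13 (SE, n = 3 each) and an edgeR adjusted p of 1.23e-06.

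The second largest decrease was that of pfl3, which encodes a DIPSY family glycoprotein. Its level was 236, 225 and 226 CPM in WT and 38.8, 40.7 and 38.5 CPM in spt20Δ. Both groups were tight and did not overlap. The log2 fold change of pfl3 was -2.54 ± 0.07 (edgeR adjusted p = 3.91e-07), a 5.80-fold decrease.

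The most highly counted flocculin gene, pfl2, fell less. It held 1723, 1851 and 1361 CPM in WT and 889, 1024 and 892 CPM in spt20Δ. All 3 spt20Δ libraries lay below the WT range, and the log2 fold change of pfl2 was -0.81 ± 0.11 (edgeR adjusted p = 0.00102). The remaining flocculin genes were not called in spt20Δ. Of these, pfl4 had a log2 fold change of 0.42 ± 0.10 (edgeR adjusted p = 0.00963), which passed the p limit but not 1.5-fold, and pfl5 one of 0.43 ± 0.13 (edgeR adjusted p = 0.0236). Both were higher in each spt20Δ library than in any WT library. The values for gsf2 (-0.23 ± 0.12) and pfl7 (-0.25 ± 0.16) came from overlapping libraries.

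In tra1Δ, 3 of the 9 genes were called, all lower, where 2.47% of 4899 genes were, 0.816% higher and 1.65% lower: pfl3, cbm1 and cbf12. The level of pfl3 was 51.3, 51.4 and 64.9 CPM, below each WT library, with a log2 fold change of -2.03 ± 0.09 (edgeR adjusted p = 2.15e-06). The level of cbm1 was 269, 202 and 242 CPM, again below the WT range but above that of spt20Δ, with a log2 fold change of -1.34 ± 0.12 (edgeR adjusted p = 0.000227). The decreases were 4.09-fold for pfl3 and 2.53-fold for cbm1. For pfl2 (-0.51 ± 0.14, adjusted p = 0.0463), gsf2 (-0.37 ± 0.10, adjusted p = 0.0420) and pfl7 (-0.73 ± 0.23, adjusted p = 0.0740), all 3 tra1Δ libraries lay below the WT range but the edgeR test did not pass. The log2 fold change of pfl4 in tra1Δ was 0.19 ± 0.09 (edgeR adjusted p = 0.218), and the pfl5 libraries overlapped WT. Without WT replicate 3, which held the lowest WT level of pfl2, pfl2 was called as well (log2 fold change -0.63, edgeR adjusted p = 0.00684).

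In tra1-Sptra2, 2 of the 9 genes were called, both lower, where 3.71% of 4908 genes were, 1.10% higher and 2.61% lower. The level of pfl3 was 69.4, 71.1 and 65.6 CPM, with a log2 fold change of -1.73 ± 0.06 (edgeR adjusted p = 7.15e-07). The level of cbm1 was 319, 369 and 308 CPM, with a log2 fold change of -0.85 ± 0.10 (edgeR adjusted p = 0.00129). Neither gene overlapped the WT range. The cbm1 call was lost without tra1-Sptra2 replicate 1 (-0.82, adjusted p = 0.0117) or replicate 3 (-0.80, adjusted p = 0.0101). The values for pfl7 (-0.88 ± 0.22, adjusted p = 0.0218) and pfl2 (-0.47 ± 0.11, adjusted p = 0.0164) did not pass the edgeR test, although all 3 libraries of each lay below WT. Without WT replicate 3, pfl2 passed it (-0.59, adjusted p = 0.000200).

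In tra1-Sctra1, 0 of the 9 genes were called by edgeR or DESeq2, where edgeR called 0.286% of 4896 genes, 0.204% higher and 0.0817% lower. At an unadjusted p under 0.05 there was 1, cbf12, with 115, 122 and 107 CPM, each above the WT range of 65.7 to 100.2 CPM (log2 fold change 0.42 ± 0.13, edgeR adjusted p = 0.194). The level of cbm1 was 655, 638 and 548 CPM and that of pfl3 173, 243 and 199 CPM, and both overlapped WT. The approximate 95% interval of the pfl3 log2 fold change ran from -0.37 to 0.05, so a decrease of the size seen in tra1-Sptra2 lay outside it.

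In spt20-HITΔ, 1 of the 9 genes was called, where 0.368% of 4887 genes were, 0.0409% higher and 0.327% lower. It was pfl3, at 111, 105 and 130 CPM, below every WT library and above every tra1Δ library, with a log2 fold change of -0.99 ± 0.09 (edgeR adjusted p = 0.00523). The call depended on single libraries: with 1 library left out the log2 fold change stayed between -1.08 and -0.93, but the edgeR adjusted p rose above 0.01 without any of 5 libraries. It was 0.0627, 0.0248 and 0.0121 without WT replicate 1, 2 or 3, and 0.0440 and 0.0107 without spt20-HITΔ replicate 1 or 3. The level of cbm1 was 440, 530 and 426 CPM and overlapped WT (-0.37 ± 0.13, edgeR adjusted p = 0.149). The spread of pfl7 was wide, with 15.01, 4.70 and 26.9 CPM in the 3 spt20-HITΔ libraries against 25.5 to 37.3 CPM in WT, and its log2 fold change of -0.999 ± 0.46 was not called.

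**Figure D2:**
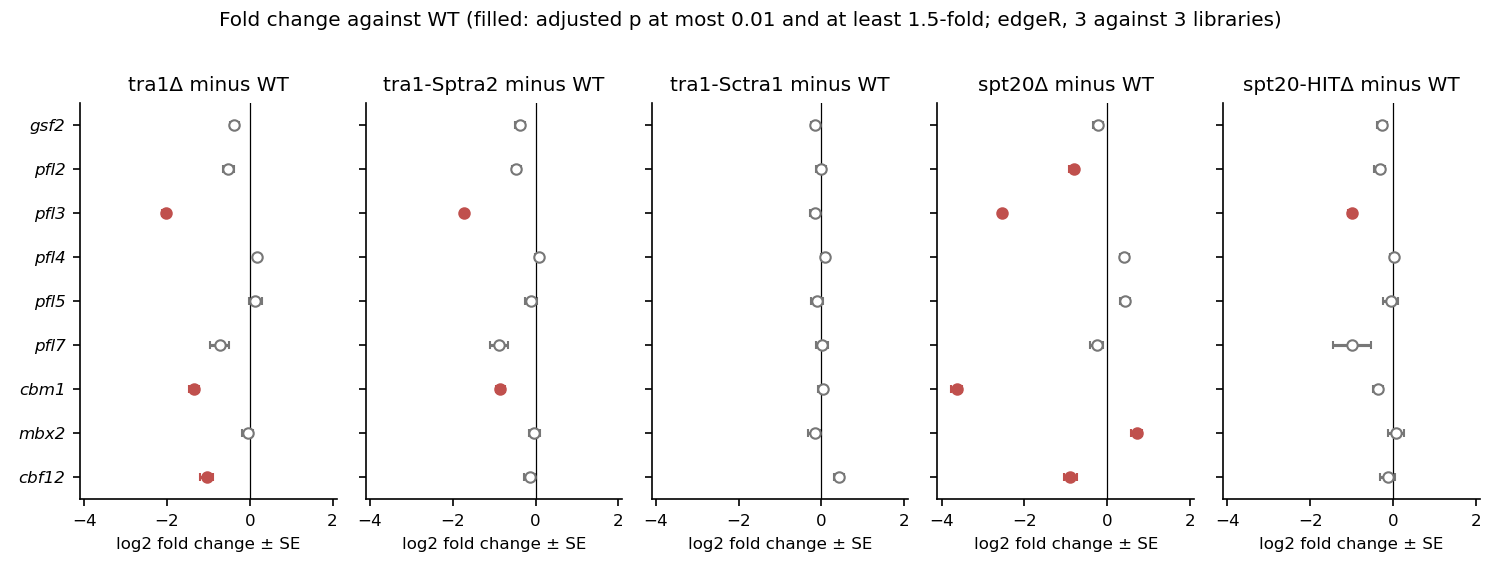
Log2 fold change against WT with its standard error for the 9 genes in 5 mutants, each from 3 against 3 libraries and the same 3 WT libraries, with called genes filled. The points of pfl3 step from -2.54 in spt20Δ through -2.03 in tra1Δ and -1.73 in tra1-Sptra2 to -0.99 in spt20-HITΔ, and no point is filled in tra1-Sctra1.

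Full loss of Spt20 and loss of the HIT region alone differed for cbm1 and pfl3. Compared directly, spt20Δ had 2 of the 9 genes called against spt20-HITΔ, both lower, where 4.26% of 4909 genes were, 2.71% higher and 1.55% lower. The difference was 9.67-fold for cbm1 (log2 -3.27 ± 0.14, edgeR adjusted p = 2.73e-05) and 2.93-fold for pfl3 (log2 -1.55 ± 0.10, edgeR adjusted p = 0.000121). In this contrast mbx2 (0.63 ± 0.15, adjusted p = 0.0251) and cbf12 (-0.77 ± 0.16, adjusted p = 0.0154) did not pass the edgeR test, and DESeq2 called both, for a count of 4.

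Compared with tra1Δ, spt20Δ also held less cbm1. Here 2 of the 9 genes were called, where 8.28% of 4913 genes were, 5.72% higher and 2.56% lower. The cbm1 level was 4.88-fold lower in spt20Δ than in tra1Δ (log2 -2.29 ± 0.12, edgeR adjusted p = 1.16e-06), and mbx2 was higher (log2 0.77 ± 0.10, edgeR adjusted p = 0.000275). For pfl3 the difference was smaller, at -0.49 ± 0.11 on the log2 scale (edgeR adjusted p = 0.00666), which is under 1.5-fold.

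The summed CPM of the 7 flocculin genes shows what these changes amounted to. The sum was 2658 ± 323 CPM in WT, 2640 ± 170 in tra1-Sctra1, 2052 ± 105 in spt20-HITΔ, 1739 ± 32.5 in tra1-Sptra2, 1614 ± 202 in tra1Δ and 1219 ± 96.9 in spt20Δ (SD, n = 3). The highest spt20Δ library, at 1331 CPM, lay below the lowest tra1Δ library, at 1443 CPM. Most of the reads were those of pfl2, with 61.7% of the sum in WT and 76.7% in spt20Δ. The share of cbm1 was 22.6% in WT and 3.94% in spt20Δ, and that of pfl3 was 8.70% and 3.24%. Since CPM are not divided by length, these shares are shares of reads and not of molecules.

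**Figure D3:**
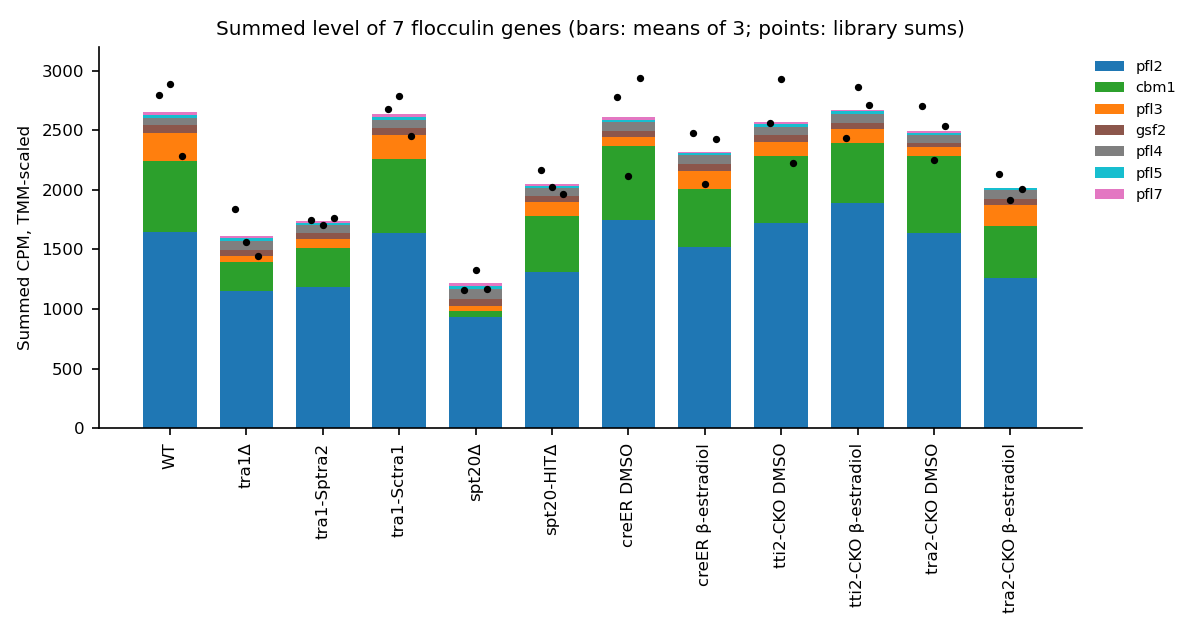
Summed TMM-scaled CPM of the 7 flocculin genes by condition, with bars stacked from the means of 3 libraries and points at the library sums. The spt20Δ bar is the lowest at 1219 CPM, and the cbm1 segment in it is 3.94% of the sum.

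The 2 regulator genes moved in opposite directions in spt20Δ. The level of mbx2 was 32.3, 32.7 and 43.9 CPM in WT and 58.8, 61.0 and 57.1 CPM in spt20Δ. Every spt20Δ library was above WT, with a log2 fold change of 0.71 ± 0.13 (edgeR adjusted p = 0.00293). The level of cbf12 was 100.2, 89.6 and 65.7 CPM in WT and 39.9, 54.4 and 43.9 CPM in spt20Δ, all below WT, with a log2 fold change of -0.89 ± 0.17 (edgeR adjusted p = 0.00341). Both calls were close to the limit. The mbx2 call was lost without WT replicate 1 or 2 or spt20Δ replicate 1 or 2, with log2 fold changes of 0.63, 0.64, 0.72 and 0.69 and adjusted p of 0.0169, 0.0103, 0.0149 and 0.0145. The cbf12 call was lost without WT replicate 1 or 2 or spt20Δ replicate 1, with log2 fold changes of -0.76, -0.85 and -0.79 and adjusted p of 0.0170, 0.0109 and 0.0203.

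In tra1Δ, cbf12 fell as well. It held 36.4, 43.1 and 45.2 CPM there, below the WT range, with a log2 fold change of -1.04 ± 0.15 (edgeR adjusted p = 0.00253). This call was lost without WT replicate 1 (-0.90, adjusted p = 0.0116) or without tra1Δ replicate 1, 2 or 3 (-0.95, -1.07 and -1.11, adjusted p of 0.0178, 0.0162 and 0.0132). The mbx2 levels of 37.8, 34.9 and 32.2 CPM in tra1Δ overlapped WT. In tra1-Sptra2 and spt20-HITΔ both regulators overlapped WT, with cbf12 between 67.8 and 95.2 CPM and mbx2 between 29.7 and 47.0 CPM over those 6 libraries.

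The consensus of each factor's class was searched in the 1000 bases before the starts of the 9 genes, on both strands. The CSL core GTGGGAA, the class of Cbf12, stood in 5.85% of 5112 promoters and before 0 of the 9 genes. The MEF2-type MADS-box consensus, CTA, then 4 letters that are A or T, then TAG, stood in 4.81% of promoters and before 1 of the 9 genes. This was gsf2, shown here in capitals with 9 flanking bases on either side, on the strand of the gene and 857 bases before its start.
gsf2 match: aatgtccatCTAAAAATAGagaaactta
The annotated transcript of gsf2 has a long leader before its coding sequence, and that leader was not part of the window. Nothing about either factor follows from the absence of a match.

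Among the strains with CreER, members also moved between DMSO and β-estradiol in the control creER, which has no floxed gene. No strain without CreER was treated, so β-estradiol and the recombinase it activates cannot be told apart there. In creER, 2 of the 9 genes were called, both higher, where 1.14% of 4904 genes were, 0.999% higher and 0.143% lower. The level of pfl3 rose from 78.3, 79.95 and 81.8 CPM in DMSO to 149, 145 and 148 CPM in β-estradiol, a 1.83-fold increase with no overlap (log2 0.87 ± 0.08, edgeR adjusted p = 0.000829). The level of mbx2 rose from 22.4, 27.3 and 23.8 CPM to 58.2, 53.3 and 48.1 CPM, a 2.16-fold increase with no overlap (log2 1.11 ± 0.13, edgeR adjusted p = 0.00346). Leaving out creER DMSO replicate 3 lost both calls (pfl3 0.89, adjusted p = 0.0112, and mbx2 1.09, adjusted p = 0.0315). The mbx2 call was also lost without β-estradiol replicate 1, 2 or 3 (1.04, 1.12 and 1.18, adjusted p of 0.0115, 0.0256 and 0.0135).

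The third gene that moved in creER was pfl7. It held 17.3, 30.6 and 27.4 CPM in DMSO and 5.40, 11.0 and 9.60 CPM in β-estradiol, with no overlap. Its log2 fold change of -1.52 ± 0.30 missed the edgeR limit (adjusted p = 0.0337) and passed it with the replicate number as a block (-1.55, edgeR adjusted p = 2.83e-06). The labels do not say what a replicate number marks. Pairing in this strain was inferred from correlated deviations of same-numbered libraries (r = 0.347 to 0.699). With that block 3 of the 9 genes and 182 genes in all were called in creER, against 56 without it.

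In tra2-CKO, which lost tra2 in β-estradiol, 3 of the 9 genes were called, where 10.1% of 4929 genes were, 7.71% higher and 2.37% lower: pfl3 and mbx2 rose and pfl7 fell. The level of pfl3 rose from 66.7, 69.9 and 75.9 CPM to 160, 215 and 154 CPM (log2 1.33 ± 0.13, edgeR adjusted p = 0.000192). The level of mbx2 rose from 16.3, 19.6 and 21.2 CPM to 50.4, 57.6 and 47.7 CPM (log2 1.47 ± 0.13, edgeR adjusted p = 0.000114). The level of pfl7 fell from 14.9, 24.4 and 20.4 CPM to 5.62, 6.003 and 3.82 CPM (log2 -1.93 ± 0.24, edgeR adjusted p = 0.000695). None of these groups overlapped.

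The responses of tra2-CKO and creER to β-estradiol were then tested against each other. Of the 9 genes, 0 were called by edgeR or DESeq2, 1 had an unadjusted p under 0.05, and edgeR called 0.384% of 4946 genes, 0.243% higher and 0.142% lower. That 1 gene was pfl3, whose response in tra2-CKO minus that in creER was 0.44 ± 0.15 on the log2 scale (edgeR adjusted p = 0.146). The approximate 95% intervals of this difference were -0.01 to 0.69 for mbx2 and -1.25 to 0.40 for pfl7. The test thus did not separate the rises of pfl3 and mbx2 in tra2-CKO from those in a strain that kept tra2, and the intervals leave room for a difference.

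Further members of tra2-CKO changed by less than the limits. The level of cbm1 fell from 682, 600 and 667 CPM to 435, 389 and 474 CPM with no overlap, which at log2 -0.57 ± 0.09 was under 1.5-fold (edgeR adjusted p = 0.00189). It was over 1.5-fold without tra2-CKO DMSO replicate 2 (-0.63) or β-estradiol replicate 3 (-0.64). For pfl2, DMSO libraries lay between 1437 and 1825 CPM and β-estradiol libraries between 1154 and 1393 CPM (log2 -0.36 ± 0.10, edgeR adjusted p = 0.0234). The log2 fold change of pfl4 was 0.28 ± 0.09 (edgeR adjusted p = 0.0432). The level of gsf2 was 40.3, 33.6 and 38.1 CPM in DMSO and 52.1, 49.4 and 48.6 CPM in β-estradiol (log2 0.44 ± 0.09, edgeR adjusted p = 0.00652). The tra2-CKO DMSO libraries held the lowest mean gsf2 level of the 12 conditions. The level of cbf12 was uneven in the DMSO cultures, with 97.2 CPM in replicate 1 and 50.0 and 44.5 CPM in the others, against 111, 119 and 92.9 CPM in β-estradiol (log2 0.77 ± 0.26, edgeR adjusted p = 0.0429). Without DMSO replicate 1 it was called, at 1.20 (edgeR adjusted p = 1.87e-05). In creER, too, replicate 1 held the most cbf12, with 101.9 CPM in DMSO against 59.4 and 55.5, and 116 CPM in β-estradiol against 67.4 and 65.8.

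In tti2-CKO, 2 of the 9 genes were called, both lower, where 12.8% of 4920 genes were, 5.65% higher and 7.13% lower. The level of cbf12 fell from 104, 101 and 121 CPM in DMSO to 40.3, 33.3 and 49.7 CPM in β-estradiol, with no overlap (log2 -1.41 ± 0.13, edgeR adjusted p = 5.22e-05). The level of pfl7 fell from 21.8, 16.9 and 20.9 CPM to 2.82, 2.23 and 4.28 CPM (log2 -2.70 ± 0.25, edgeR adjusted p = 4.10e-05). The lowest pfl7 libraries held 15 to 28 counts. The level of pfl3 was 124, 103 and 126 CPM in DMSO and 113, 94.1 and 151 CPM in β-estradiol, and the groups overlapped on both sides. The level of mbx2 was 31.8, 25.2 and 25.5 CPM in DMSO and 34.3, 35.8 and 44.8 CPM in β-estradiol, which did not overlap (log2 0.47 ± 0.15, edgeR adjusted p = 0.0292). The libraries of cbm1 (-0.16 ± 0.14), pfl2 (0.13 ± 0.14) and pfl4 (0.17 ± 0.11) overlapped between treatments in tti2-CKO. The level of pfl5 was higher in each β-estradiol library (log2 0.44 ± 0.13, edgeR adjusted p = 0.0251). The level of gsf2 was 37.7, 40.7 and 66.6 CPM in β-estradiol, and without replicate 3 its log2 fold change went from -0.32 to -0.61 and was called (edgeR adjusted p = 0.00339).

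The responses of tti2-CKO at 18 h and tra2-CKO at 21 h to β-estradiol differed for 3 members. In the direct test of the responses, 3 of the 9 genes were called, all lower in tti2-CKO, where 6.11% of 4956 genes were, 2.52% higher and 3.59% lower. The response of cbf12 in tti2-CKO minus that in tra2-CKO was -2.14 ± 0.33 on the log2 scale (edgeR adjusted p = 0.000875). It was -1.27 ± 0.23 for pfl3 (edgeR adjusted p = 0.00241) and -0.94 ± 0.20 for mbx2 (edgeR adjusted p = 0.00631). Strain and treatment time cannot be told apart in this contrast. The mbx2 call was lost without tti2-CKO DMSO replicate 1 (-0.83, adjusted p = 0.0196), tti2-CKO β-estradiol replicate 1 or 2 (-0.88 and -0.90, adjusted p of 0.0163 and 0.0172), tra2-CKO DMSO replicate 1 or 2 (-0.84 and -0.96, adjusted p of 0.0105 and 0.0135), or tra2-CKO β-estradiol replicate 1 or 2 (-0.96 and -0.86, adjusted p of 0.0146 and 0.0190). Without tti2-CKO β-estradiol replicate 3, gsf2 was called too (-1.01, edgeR adjusted p = 0.000726).

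Tested against the creER response, tti2-CKO had 0 of the 9 genes called by edgeR, where 2.43% of 4945 genes were, 1.31% higher and 1.11% lower, and 4 with an unadjusted p under 0.05. These were cbf12 (-1.58 ± 0.36, adjusted p = 0.0184), pfl3 (-0.84 ± 0.20, adjusted p = 0.0207), mbx2 (-0.62 ± 0.20, adjusted p = 0.0707) and pfl7 (-1.15 ± 0.43, adjusted p = 0.112), all by edgeR and all lower in tti2-CKO. Here too treatment lasted 18 h in one strain and 21 h in the other, so strain and time cannot be told apart. DESeq2 called 2 of them, cbf12 (adjusted p = 0.000436) and pfl3 (adjusted p = 0.00252). With edgeR, cbf12 was called without creER DMSO replicate 1 (-1.93, adjusted p = 0.00254) and pfl3 without tti2-CKO β-estradiol replicate 3 (-1.04, adjusted p = 0.00178).

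**Figure D4:**
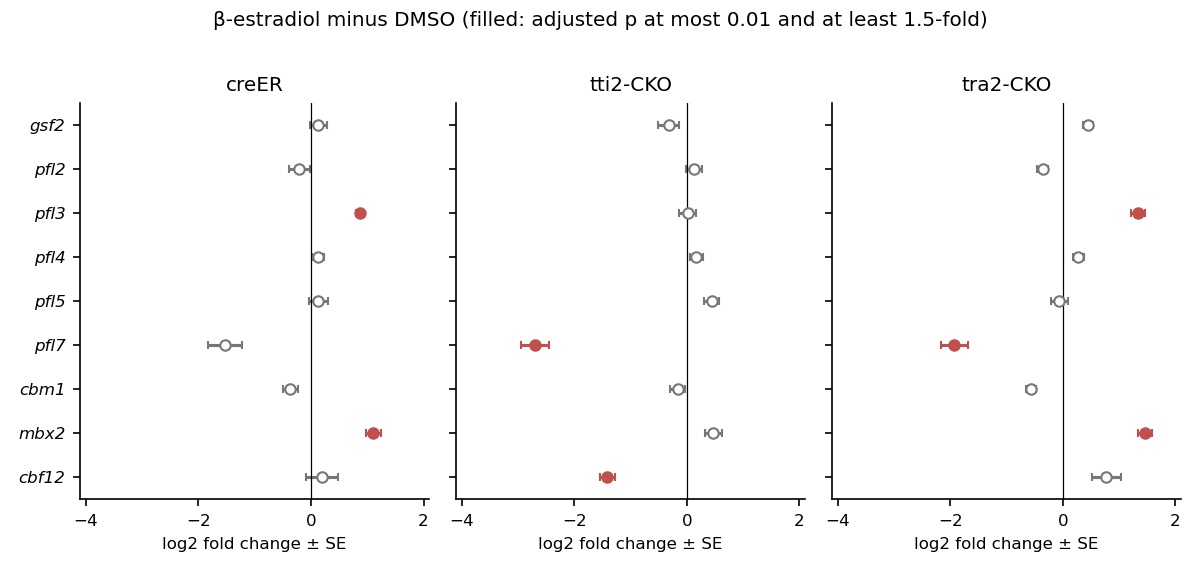
Log2 fold change of β-estradiol minus DMSO with its standard error for the 9 genes in creER, tti2-CKO and tra2-CKO, each from 3 against 3 libraries, with called genes filled. The mbx2 points lie at 1.11, 0.47 and 1.47 and the pfl7 points at -1.52, -2.70 and -1.93.

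**Figure D5:**
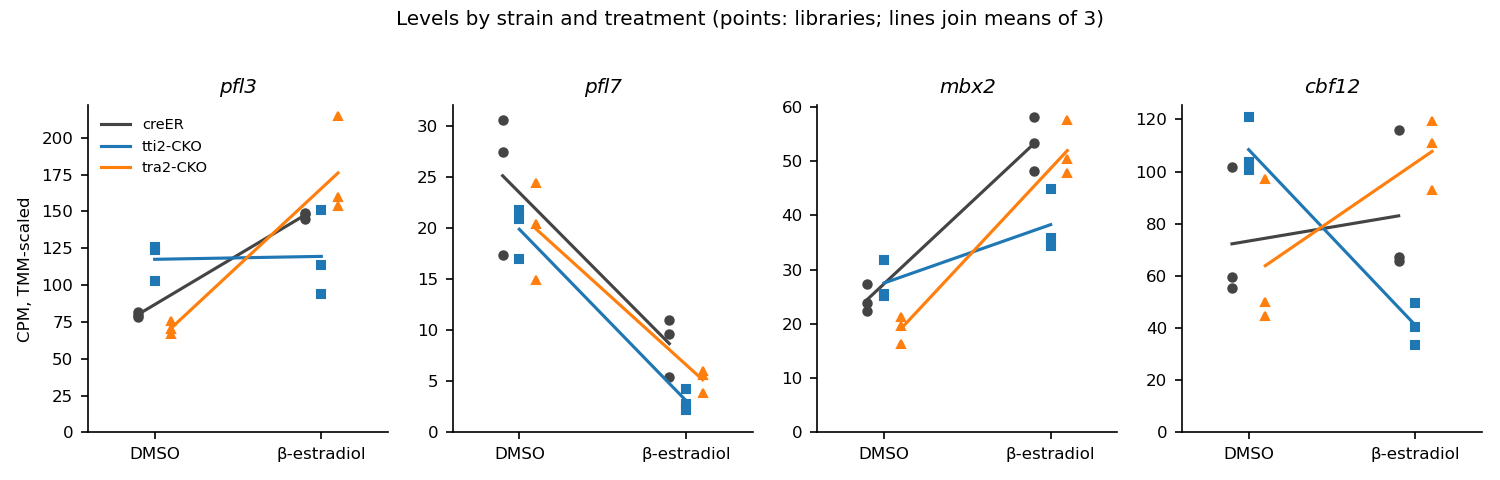
TMM-scaled CPM of pfl3, pfl7, mbx2 and cbf12 in the DMSO and β-estradiol cultures of creER (circles), tti2-CKO (squares) and tra2-CKO (triangles), with lines joining the means of 3 libraries. The cbf12 line falls from 108 to 41.1 CPM in tti2-CKO and rises from 63.9 to 108 CPM in tra2-CKO.

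Between the DMSO cultures of the strains no member passed the test. Against creER, 0 of the 9 genes were called in tti2-CKO or in tra2-CKO by edgeR or DESeq2, where edgeR called 0.00% of 4888 and 4879 genes, although 710 and 260 genes had an unadjusted p under 0.05. Of the members, pfl3 and cbf12 had such a p in tti2-CKO, and gsf2 in tra2-CKO. The value was 0.54 ± 0.11 for pfl3 (edgeR adjusted p = 0.122), 0.58 ± 0.21 for cbf12 (edgeR adjusted p = 0.267) and -0.48 ± 0.16 for gsf2 (edgeR adjusted p = 0.890). Without creER DMSO replicate 1, the cbf12 difference in tti2-CKO was called (0.91, edgeR adjusted p = 0.00189), and 247 genes in all were. The mean level of pfl3 was 79.998 CPM in creER in DMSO, 117 in tti2-CKO in DMSO and 70.8 in tra2-CKO in DMSO, against 229 CPM in WT without DMSO. The strain, its CreER and the DMSO cannot be told apart there, and no test was made.

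Across the 36 libraries the members did not move as a block. Pearson's r of log2(CPM + 0.5) between members ranged from -0.57 to 0.78. It was 0.78 for pfl2 and cbm1, 0.66 for pfl3 and cbm1, 0.62 for pfl3 and cbf12, 0.59 for mbx2 and pfl4, and 0.31 for mbx2 and gsf2. The lowest values were -0.57 for mbx2 and cbm1, -0.57 for cbf12 and pfl5, -0.53 for pfl4 and cbm1 and -0.50 for mbx2 and pfl2. The r of mbx2 and pfl3 was 0.08. The 36 points share conditions and libraries, so these values are descriptions.

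Over the 4650 genes that averaged 10 CPM or more, those most like pfl3 over the 36 libraries were dea2 (r = 0.93), cnp3 (r = 0.91) and abp2 (r = 0.90). Those most like gsf2 included osh2 (r = 0.77) and SPCC622.15c (r = 0.72). Those most like mbx2 were ips1 (r = 0.80), SPAC5H10.04 (r = 0.77) and pfl8 (r = 0.75), of which pfl8 is another predicted adhesin gene.

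Of 5 other predicted adhesin genes tested, 3 were called in spt20Δ, where 12.8% of all genes were. In spt20Δ, pfl8 (log2 0.75 ± 0.13, edgeR adjusted p = 0.00219) and the P-cell adhesin gene map4 (log2 0.67 ± 0.10, edgeR adjusted p = 0.00108) rose and SPBPJ4664.02 fell (log2 -1.35 ± 0.11, edgeR adjusted p = 0.000108). SPBPJ4664.02 was also called lower in tra1Δ (log2 -0.92 ± 0.10, edgeR adjusted p = 0.000404). The rise of pfl8 in β-estradiol was 1.33 ± 0.13 in creER and 1.29 ± 0.10 in tra2-CKO on the log2 scale (edgeR adjusted p = 0.00137 and 6.89e-05), and pfl8 was not called in tti2-CKO.

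Of 12 other genes for regulators of flocculation, 1 was called in tti2-CKO and 1 in tra2-CKO in β-estradiol. That share is no higher than the 12.8% and 10.1% of all genes. The corepressor gene ssn6 fell in tti2-CKO (log2 -0.71 ± 0.14, edgeR adjusted p = 0.00282) and yox1, which encodes a homeobox repressor, rose in tra2-CKO (log2 0.90 ± 0.11, edgeR adjusted p = 0.000696). The Mediator kinase module, a known repressor of flocculation genes, had 4 genes tested. Of these, med13 was called, higher in tra2-CKO (log2 1.01 ± 0.14, edgeR adjusted p = 0.00111), where 7.71% of all genes were called higher. Tested against the creER response, 0 of the 12 and 0 of the 4 were called in tti2-CKO or tra2-CKO. Of all genes, 2.43% and 0.384% were called in those tests. Against WT, 0 of the 12 were called in spt20Δ, where 12.8% of all genes were. In spt20Δ, 1 of the 12 was called higher against spt20-HITΔ and 1 against tra1Δ, where 2.71% and 5.72% of all genes were. In the response of tti2-CKO against that of tra2-CKO, 1 of the 12 was called lower, where 3.59% of all genes were.

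Some cell wall genes were called lower in spt20Δ, tra1-Sptra2, tra1Δ and spt20-HITΔ, and some were called higher in β-estradiol. Of 29 genes for glucan synthases, glucanases and wall proteins, 8 were called lower in spt20Δ, 4 in tra1-Sptra2, 3 in tra1Δ and 1 in spt20-HITΔ, where 5.73%, 2.61%, 1.65% and 0.327% of all genes were. In tra1-Sctra1, 0 of the 29 were called, where 0.286% of all genes were. In β-estradiol, 5 were called higher in tra2-CKO, 2 in tti2-CKO and 2 in creER, where 7.71%, 5.65% and 0.999% of all genes were. The 2 of 29 in tti2-CKO are near its share of all genes. Tested against the creER response, 0 of the 29 were called in tti2-CKO or tra2-CKO, where 2.43% and 0.384% of all genes were. Their median log2 fold change in spt20Δ was -0.02, against 0.02 over all genes tested. The septum-cleaving endoglucanase gene eng1 fell in spt20Δ (log2 -2.33 ± 0.14, edgeR adjusted p = 2.39e-05), tra1Δ (log2 -1.10 ± 0.13, edgeR adjusted p = 0.000744) and tra1-Sptra2 (log2 -1.11 ± 0.08, edgeR adjusted p = 0.000127). The exoglucanase gene exg1 fell in spt20Δ (log2 -2.17 ± 0.23, edgeR adjusted p = 0.000326) and rose in β-estradiol in tra2-CKO (log2 0.99 ± 0.13, edgeR adjusted p = 0.000963). The sporulation genes bgs2 and agn2, for a glucan synthase and a glucanase, rose in β-estradiol in creER as well, by 1.17 ± 0.16 and 1.78 ± 0.15 on the log2 scale (edgeR adjusted p = 0.00631 and 0.000749).

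Some genes of mating and differentiation were called higher in β-estradiol in tti2-CKO and tra2-CKO. Of 5 M-cell genes tested in tti2-CKO, 3 were called higher, where 5.65% of all genes were, among them the pheromone gene mfm1 (log2 3.70 ± 0.29, edgeR adjusted p = 1.97e-05), and the differentiation genes ste11 (log2 1.83 ± 0.17, edgeR adjusted p = 4.37e-05) and mei2 (log2 2.02 ± 0.30, edgeR adjusted p = 0.000713) rose. Of 3 P-cell genes, 1 was called higher in tti2-CKO and 2 in tra2-CKO, where 7.71% of all genes were. Only 1 of the 3 had a log2 fold change above 0 in tti2-CKO. In tra2-CKO, mei2 rose as well (log2 1.53 ± 0.20, edgeR adjusted p = 0.000892). Tested against the creER response, tra2-CKO had 0 of 3 P-cell, 0 of 4 M-cell and 0 of 2 differentiation genes called. For tti2-CKO that test called 1 of 5 M-cell, 0 of 3 P-cell and 1 of 2 differentiation genes, both higher. Strain and time cannot be told apart in the latter. Of all genes, 0.243% and 1.31% were called higher in these tests. The other rises were not separated from the creER response. In tra1Δ, 1 of 3 M-cell and 1 of 2 differentiation genes were called higher, where 0.816% of all genes were. These were mfm2 (log2 1.05 ± 0.18, edgeR adjusted p = 0.00689) and ste11 (log2 1.13 ± 0.14, edgeR adjusted p = 0.000950). None of these mating and differentiation genes was called in tra1-Sptra2 or spt20-HITΔ. Mean ste11 was 24.4 CPM in WT, 17.8 in tra1-Sptra2 and 13.7 in spt20-HITΔ, and mean mfm2 was 11.2, 6.07 and 3.76. In spt20Δ, 2 of 3 P-cell genes were called higher, where 7.09% of all genes were. They include map4, which is also counted above among the other adhesin genes. Whether these changes in mating and differentiation genes bear on the members was not tested.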

How the data were processed

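PolyA RNA of 36 cultures was sequenced by the authors as stranded libraries with single 50-base reads. Per the paper's methods, reads were aligned with HISAT2 and counted per gene with htseq-count. The submitters' processing notes give HISAT2 2.1.0, HTSeq 0.9.1 and DESeq2 1.18.1. The deposited values are the authors' raw counts per gene, not normalized. The genome build is not given in the sources used here, so no coordinates are printed. RefSeq ASM294v3 matched 5111 of 5129 gene IDs, 4261 with a symbol, and gave names, lengths and sequences. All columns of the table were used.

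Counts were compared with edgeR 4.0.16 (R 4.3.3): TMM normalization, filterByExpr with a minimum count of 10, quasi-likelihood F-tests on the libraries of each comparison (6, or 12 for interactions), and Benjamini-Hochberg adjustment over all genes tested. DESeq2 1.42.0 and the other alternatives are given in the closing section. The test was checked on simulated counts. The study gives the 3 cultures per condition as independent biological samples, and an exact permutation test of 3 against 3 cannot go below p = 0.1, so p-values come from the model across genes. Replicate numbers were taken to pair cultures where every same-numbered correlation of deviations exceeded 0.1, in 5 of the 15 comparisons: creER, tra2-CKO, tra1-Sctra1, spt20Δ against WT, and tra2-CKO against creER in DMSO. The members, the gene lists and the genes named from them were chosen with earlier results of these data known. All 9 members are reported, and of the other lists only genes called against WT or DMSO and the 3 genes most like gsf2, pfl3 and mbx2, of which 1 is not reported here.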

Additional observations from a re-analysis of the deposited data

Results flagged for a closer look

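Between the responses of tti2-CKO at 18 h and tra2-CKO at 21 h to β-estradiol, 3 members differed in a direct test of strain by treatment. The difference was -2.14 for cbf12, which fell in tti2-CKO and was higher in each β-estradiol library than in 2 of the 3 DMSO libraries of tra2-CKO. It was -1.27 for pfl3, which rose in tra2-CKO and overlapped between treatments in tti2-CKO. It was -0.94 for mbx2, which rose in tra2-CKO and had a log2 fold change of 0.47 in tti2-CKO. The mbx2 call was lost without any 1 of 7 of the 12 libraries and with the replicate block (-0.95, edgeR adjusted p = 0.0124). All 3 differences are on the log2 scale, with edgeR adjusted p of 0.000875, 0.00241 and 0.00631.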

How the results depend on the processing

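The count of members called stayed within 1.5 times the value in the report under RLE normalization and both other filters on low counts, in all 15 comparisons. With DESeq2 it moved from 2 to 4 for spt20Δ against spt20-HITΔ and from 0 to 2 for the response of tti2-CKO against that of creER, where the replicate block and a single fit of all 36 libraries gave 2 as well. With 1 library left out, the count ranged from 0 to 2 in creER, 0 to 1 in spt20-HITΔ, 3 to 5 in spt20Δ, 1 to 3 in tra1-Sptra2, 0 to 1 for tti2-CKO against creER in DMSO, and 0 to 1 for the response of tti2-CKO against that of creER. The replicate block changed the call of 1 member in the comparisons taken as paired, pfl7 in creER. In the others it called cbf12 for spt20Δ against spt20-HITΔ (-0.77, edgeR adjusted p = 0.000800), and cbf12 and pfl3 for the response of tti2-CKO against that of creER (-1.58 and -0.85, edgeR adjusted p = 0.00629 and 0.00742), and ended the call of mbx2 for tti2-CKO against tra2-CKO (-0.95, edgeR adjusted p = 0.0124). DESeq2 also called pfl7 in creER (-1.54) and in tra1-Sptra2 (-0.90), and the single fit called pfl7 in creER (-1.52) and cbm1 in tra2-CKO (-0.59).

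Over all genes, calls moved more: with DESeq2 from 56 to 136 in creER, 121 to 183 in tra1Δ, 14 to 40 in tra1-Sctra1, 18 to 96 in spt20-HITΔ, 209 to 344 for spt20Δ against spt20-HITΔ, 120 to 275 for the response of tti2-CKO against that of creER, 19 to 105 for that of tra2-CKO against creER, and from 0 to 27 and 2 for tti2-CKO and tra2-CKO against creER in DMSO. The block gave 2 in tra1-Sctra1, 110 in spt20-HITΔ, 83 for tra2-CKO against creER, and 7 and 27 in DMSO. The single fit gave 135, 87, 350, 322, 78, 13 and 2 for creER, spt20-HITΔ, spt20Δ against spt20-HITΔ, the responses of tti2-CKO and tra2-CKO against creER, and tti2-CKO and tra2-CKO in DMSO. At least 10 counts in every library gave 9 in spt20-HITΔ. With 1 library left out, calls ranged from 10 to 61 in creER, 455 to 610 in tti2-CKO, 369 to 612 in tra2-CKO, 67 to 183 in tra1Δ, 77 to 217 in tra1-Sptra2, 2 to 23 in tra1-Sctra1, 403 to 719 in spt20Δ, 0 to 12 in spt20-HITΔ, 39 to 329 for spt20Δ against spt20-HITΔ, 294 to 482 for spt20Δ against tra1Δ, 0 to 247 and 0 to 0 for tti2-CKO and tra2-CKO in DMSO, and, for the responses, 60 to 154 for tti2-CKO against creER, 1 to 12 for tra2-CKO against creER and 205 to 366 for tti2-CKO against tra2-CKO. The cause was not tested. The fewest counts of any member were those of pfl7, with 15 to 28 in the tti2-CKO libraries in β-estradiol.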
